A study of Brassica rapa with 12 samples.

Results

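A group of 60 abundant genes whose scaled level varied by less than 1.8-fold was examined in Chinese cabbage (Brassica rapa). The study covers a short heat treatment and an edit of the clock gene GIGANTEA. The genes were chosen from the measured values. Counts were scaled to CPM, the count a gene would have in a library of fixed size, with edgeR's trimmed mean of M-values (TMM), a factor per library that aligns the bulk of genes between libraries, and a gene belonged to the group if it had at least 100 CPM in each of the 12 libraries and its highest CPM was under 1.8 times its lowest. Of 47249 gene IDs listed, 28846 passed a filter on low counts (edgeR's filterByExpr), 470 of these had at least 100 CPM in each library, and 60 of the 470 (12.8%) stayed under the limit of 1.8. The 60 genes all passed the filter. Their highest and lowest values chose them, so the steadiness of the 60 genes is the rule that picked them and not a finding, and no test is given for it.

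Whole plants, 2 weeks old and grown on 1/2MS medium, were used in 4 groups of 3 libraries each. These were gi plants held at 37 °C for 1 h, gi plants left at 22 °C, wild-type plants held at 37 °C for 1 h and wild-type plants left at 22 °C. The gi plants carry an edited GIGANTEA and are labelled late flowering, the wild type is labelled early flowering, and both are of the cultivar Chiifu. The labels do not say what the edit changed, how many edited lines were used, or whether a library holds 1 plant or several, so differences between replicates may in part be technical. Because whole plants were used, fewer cells of a type and less RNA per cell cannot be told apart in any value below.

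GIGANTEA works in the circadian clock of plants and in the timing of flowering by day length. A sudden rise in temperature makes plant cells transcribe genes of chaperones and other protective proteins through heat shock factors, while transcripts of many other processes decline. Transcripts that keep their level through such a treatment are sought as internal references for quantitative PCR, where genes of actin, tubulin, ubiquitin or translation factors are often used. Whether any of the 60 genes is of that kind is not known here. None of the 47249 IDs matched the 51589 genes of the RefSeq table at hand (assembly CAAS_Brap_v3.01), so the genes are given by ID, with no name, function, coordinates or sequence, and tissue markers were not checked. The chromosome of a gene is the one its ID names. CPM values are not divided by transcript length, so levels are compared for 1 gene between libraries and not between genes.

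The libraries held 36778289 to 57777477 counts in genes. At that depth the 60 genes had at least 3485 counts in any library, and counting error in the library with fewest counts was 0.576% to 1.69% of a gene's level. That error covers counting alone, since copies made by PCR cannot be recognised without molecular identifiers. The coefficient of variation of the 60 genes over the 12 libraries was 9.34% to 22.5%, with a median of 16.6%. Replicate 1 stood apart from its group in 3 of the 4 groups. The chi-square of counts over genes, per degree of freedom, was 67.3 and 82.4 for replicate 1 against the other replicates of gi at 37 °C and 17.2 between those. In gi at 22 °C it was 122 and 144 for replicate 1 and 46.4 between the others, and in wild type at 22 °C 425 and 391 for replicate 1 and 82.9 between the others. In wild type at 37 °C the pairs lay closer together, at 62.5 to 84.2.

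The steadiest gene was BraA09g045900.3.5C, with a ratio of highest to lowest CPM of 1.34. BraA09g045900.3.5C had 109, 121 and 106 CPM in gi at 37 °C, 141, 125 and 114 CPM in gi at 22 °C, 139, 112 and 139.6 CPM in wild type at 37 °C, and 125, 135 and 130.2 CPM in wild type at 22 °C (replicates 1 to 3 in each list). Its lowest value came from the gi plants after heat and its highest from gi plants without it. The gi libraries at 37 °C lay below the wild-type libraries at 22 °C by a narrow gap, and the other groups overlapped. BraA09g040150.3.5C had 102, 119 and 118 CPM in gi at 37 °C, 135, 115 and 128 CPM in gi at 22 °C, 128, 143 and 140.2 CPM in wild type at 37 °C, and 136, 136 and 129.5 CPM in wild type at 22 °C, a ratio of 1.40. The gi libraries at 37 °C lay below all 6 wild-type libraries for this gene, and the other groups overlapped.

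BraA02g008340.3.5C had 119, 109.7 and 107 CPM in gi at 37 °C, 107, 104 and 101 CPM in gi at 22 °C, 141, 132 and 133 CPM in wild type at 37 °C, and 114, 101 and 103 CPM in wild type at 22 °C, a ratio of 1.40. Here the 3 wild-type libraries at 37 °C lay above all 9 others, and the gi libraries at 37 °C above those at 22 °C. BraA02g012260.3.5C had 151, 113 and 112 CPM in gi at 37 °C, 154, 147 and 125 CPM in gi at 22 °C, 139.7, 116 and 116 CPM in wild type at 37 °C, and 109, 138 and 123 CPM in wild type at 22 °C, a ratio of 1.42. Replicate 1 was the highest library in both gi groups and in wild type at 37 °C, but the lowest in wild type at 22 °C. These 4 genes averaged 114 to 129 CPM, close to the floor of 100 CPM.

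The lower end of the range is favoured by the rule itself, since a gene with a mean near 100 CPM can reach the floor in every library only if it varies little. Of the 102 abundant genes averaging 100 to 200 CPM, 35 were in the group. Of those averaging 200 to 400 CPM, 19 of 199 were, of those at 400 to 800 CPM 5 of 95, and of those at 800 CPM or more 1 of 74. The 60 genes averaged 114 to 1114 CPM with a median of 178 CPM, against 133 to 10646 CPM and a median of 329 CPM for the other 410 abundant genes.

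**Figure D1:**
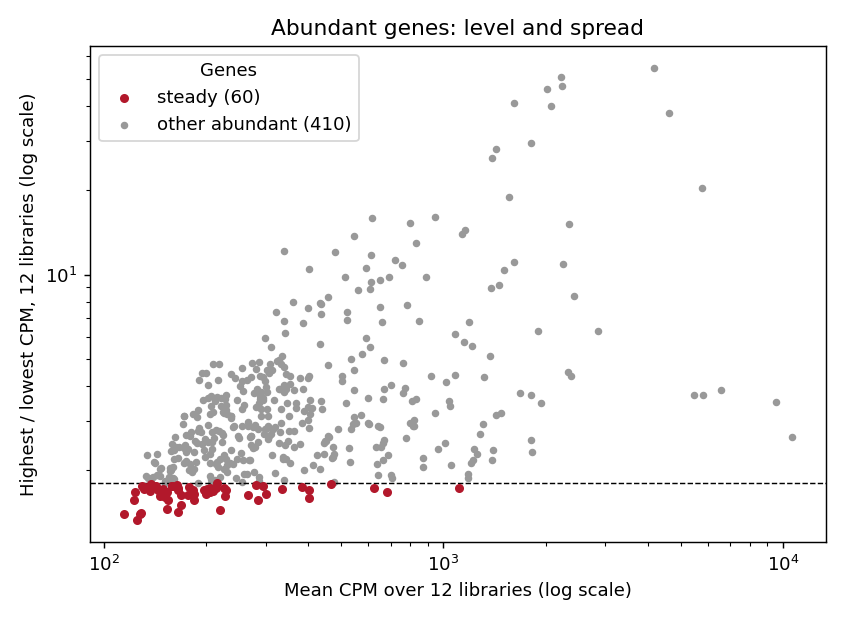
Each point is 1 of the 470 abundant genes, with its mean CPM over the 12 libraries on the x axis and its highest CPM divided by its lowest on the y axis, both on log scales. The 60 steady genes (red) lie under the dashed limit of 1.8, mostly below 400 CPM, and the other 410 genes (grey) reach ratios of 54.3.

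The gene with the most reads was BraA03g015710.3.5C. BraA03g015710.3.5C had 1629.6, 1107 and 1051 CPM in gi at 37 °C, 1095, 1109 and 941 CPM in gi at 22 °C, 1347, 1135 and 967 CPM in wild type at 37 °C, and 999, 1042 and 941 CPM in wild type at 22 °C. Its highest value came from gi at 37 °C replicate 1 alone, and the other 11 libraries ran from 941 to 1347 CPM. The gi libraries at 37 °C all lay above the wild-type libraries at 22 °C. BraA08g016700.3.5C had 847, 684 and 647 CPM in gi at 37 °C, 698, 643 and 613 CPM in gi at 22 °C, 886, 729 and 634 CPM in wild type at 37 °C, and 647, 639.9 and 527 CPM in wild type at 22 °C. Replicate 1 was the highest library of each group for this gene, and all groups overlapped. BraA07g034050.3.5C had 816, 516 and 471 CPM in gi at 37 °C, 605, 647 and 569.6 CPM in gi at 22 °C, 808, 578 and 769 CPM in wild type at 37 °C, and 696, 552 and 495 CPM in wild type at 22 °C. The gi libraries at 37 °C held both its highest and its lowest value, so the range inside that group was the range over the study.

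BraA04g021770.3.5C had 600.3, 421 and 396 CPM in gi at 37 °C, 587, 521 and 467 CPM in gi at 22 °C, 526, 393 and 484 CPM in wild type at 37 °C, and 496, 394 and 334 CPM in wild type at 22 °C. With a ratio of 1.796, this gene sat just inside the limit, and its lowest value was wild type at 22 °C replicate 3. The other gene just inside was BraA10g001280.3.5C, at 1.798, with its lowest value of 154 CPM in the same library and its highest of 277 CPM in wild type at 37 °C replicate 1. Just outside were BraA05g016550.3.5C, with 141 to 253 CPM and a ratio just over 1.8, and BraA07g035680.3.5C, with 151 to 274 CPM and a ratio of 1.81. In both of these the highest library was wild type at 22 °C replicate 1. At the floor, BraA08g034050.3.5C and BraA02g008340.3.5C were just inside with lowest values of 100.3 and 100.8 CPM, and BraA07g035580.3.5C and BraA06g006460.3.5C just outside with 98.3 and 98.0 CPM. No gap separated the genes inside either limit from those outside.

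Each of the 10 chromosomes carried members. Chromosome A03 had 9, A02, A08 and A09 had 8 each, A06 and A10 had 6 each, A04 had 5, A05 had 4, and A01 and A07 had 3 each. As a share of the abundant genes of the chromosome this was 6.67% (A01) to 18.6% (A02). In ID order, taken as the order along the chromosome, no members were next to each other among tested genes, and consecutive members were a median of 304 tested genes apart. The closest pair, BraA10g001280.3.5C and BraA10g001400.3.5C, was 8 tested genes apart. The count of the first divided by that of the second was 1.602, 1.302 and 1.399 for gi at 37 °C, 1.459, 1.496 and 1.337 for gi at 22 °C, 1.23, 0.862 and 1.07 in wild type at 37 °C, and 1.21, 0.940 and 0.947 in wild type at 22 °C. This ratio was higher in each gi library than in each wild-type library, a description of a pair singled out for its position.

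The steadiest gene of each chromosome is given next. On A01, BraA01g041860.3.5C had 147, 166 and 160.2 CPM in gi at 37 °C, 158, 143 and 161 CPM in gi at 22 °C, 180.4, 203 and 178 CPM in wild type at 37 °C, and 184, 159 and 149 CPM in wild type at 22 °C. All 3 wild-type libraries at 37 °C were above all 6 gi libraries here, while wild type at 22 °C overlapped with gi. On A05, BraA05g000280.3.5C had 154, 168 and 172 CPM in gi at 37 °C, 152, 134 and 146 CPM in gi at 22 °C, 182, 206 and 220.4 CPM in wild type at 37 °C, and 194, 152 and 151 CPM in wild type at 22 °C. Its pattern was the same, with wild type at 37 °C above every gi library at either temperature. On A06, BraA06g009790.3.5C had 413, 461 and 401 CPM in gi at 37 °C, 396, 348 and 345 CPM in gi at 22 °C, 476, 383 and 517 CPM in wild type at 37 °C, and 426, 347 and 323 CPM in wild type at 22 °C. The gi libraries at 37 °C lay above those at 22 °C by a narrow gap, and the wild-type groups overlapped.

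On A08, BraA08g021430.3.5C had 197, 182 and 194 CPM in gi at 37 °C, 225, 152 and 166 CPM in gi at 22 °C, 179, 173 and 220.1 CPM in wild type at 37 °C, and 225, 159.7 and 143 CPM in wild type at 22 °C. The 2 highest libraries were replicate 1 of both groups at 22 °C, and all 4 groups overlapped, with fitted log2 heat changes of 0.08 (SE 0.22) in gi and 0.11 (SE 0.22) in wild type. On A03, BraA03g029480.3.5C had 189.9, 164 and 147 CPM in gi at 37 °C, 172, 219 and 176 CPM in gi at 22 °C, 251, 246 and 196 CPM in wild type at 37 °C, and 157, 244 and 212 CPM in wild type at 22 °C. Here gi was lower than wild type at 37 °C without overlap. On A04, BraA04g018760.3.5C had 135, 132 and 119 CPM in gi at 37 °C, 187, 147 and 118 CPM in gi at 22 °C, 177, 185 and 145 CPM in wild type at 37 °C, and 109, 137 and 137 CPM in wild type at 22 °C. The 3 gi libraries at 37 °C were again below the 3 wild-type libraries, with the groups at 22 °C overlapping. A02 and A09 are represented by genes given above, and A07 and A10 by genes given below.

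How many of the abundant genes were steady depended on which libraries were read together. Within gi at 37 °C, 438 of the 470 genes stayed under 1.8, within gi at 22 °C 410, within wild type at 37 °C 428 and within wild type at 22 °C 229. The last group holds the replicate with the highest chi-square values. Across the genotypes, 293 genes stayed under the limit in the 6 libraries at 37 °C and 152 in the 6 at 22 °C. Across the heat treatment, 209 did so in the 6 gi libraries and 110 in the 6 wild-type libraries. More libraries can only widen a range, so counts over 3, 6 and 12 libraries are not on the same footing. Of the 84 genes steady through heat in each genotype alone, 24 were lost when the genotypes were read together. A further 32 genes were steady across genotypes at each temperature but through heat in neither genotype.

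**Figure D2:**
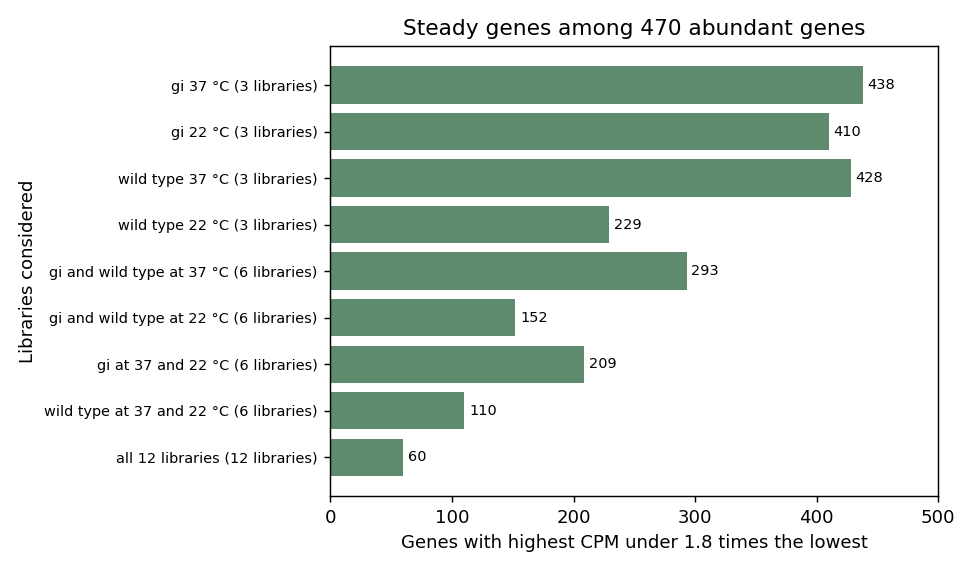
Bars give the number of the 470 abundant genes whose highest CPM is under 1.8 times the lowest in the libraries named on the y axis. Counts fall to 60 over all 12 libraries, and among the 4 single groups wild type at 22 °C has the fewest (229).

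For the 60 genes, the median ratio of highest to lowest was 1.19 within gi at 37 °C, 1.18 within gi at 22 °C, 1.25 within wild type at 37 °C and 1.25 within wild type at 22 °C, and 1.70 over all libraries. The SD of log2 CPM within groups had a median of 0.182 over the 60 genes, and the SD between the 4 group means a median of 0.186. In 28 of the 60 genes the SD within groups was the larger. For the other 410 abundant genes the medians were 0.369 and 0.390, and the SD within groups was the larger in 199. The SD within groups is that of single libraries, and the SD between groups that of means of 3 libraries, which vary less. Similar values of the 2 SDs thus do not mean that groups differed no more than replicates.

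The highest library of a gene was most often a wild-type library at 37 °C (33 of the 60 genes, 20 of them with replicate 1), and the lowest was most often one of wild type at 22 °C (24 genes, 16 of them with replicate 3) or of gi at 37 °C (18 genes, 11 of them with replicate 3). These are also libraries with extreme scaling factors. The TMM factor was 0.665 in wild type at 37 °C replicate 1, the lowest of all, 1.52 in wild type at 22 °C replicate 3, the highest of all, and 0.910 in gi at 37 °C replicate 3, the highest at 37 °C. The part of the scaling in these extremes was not tested.

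**Figure D3:**
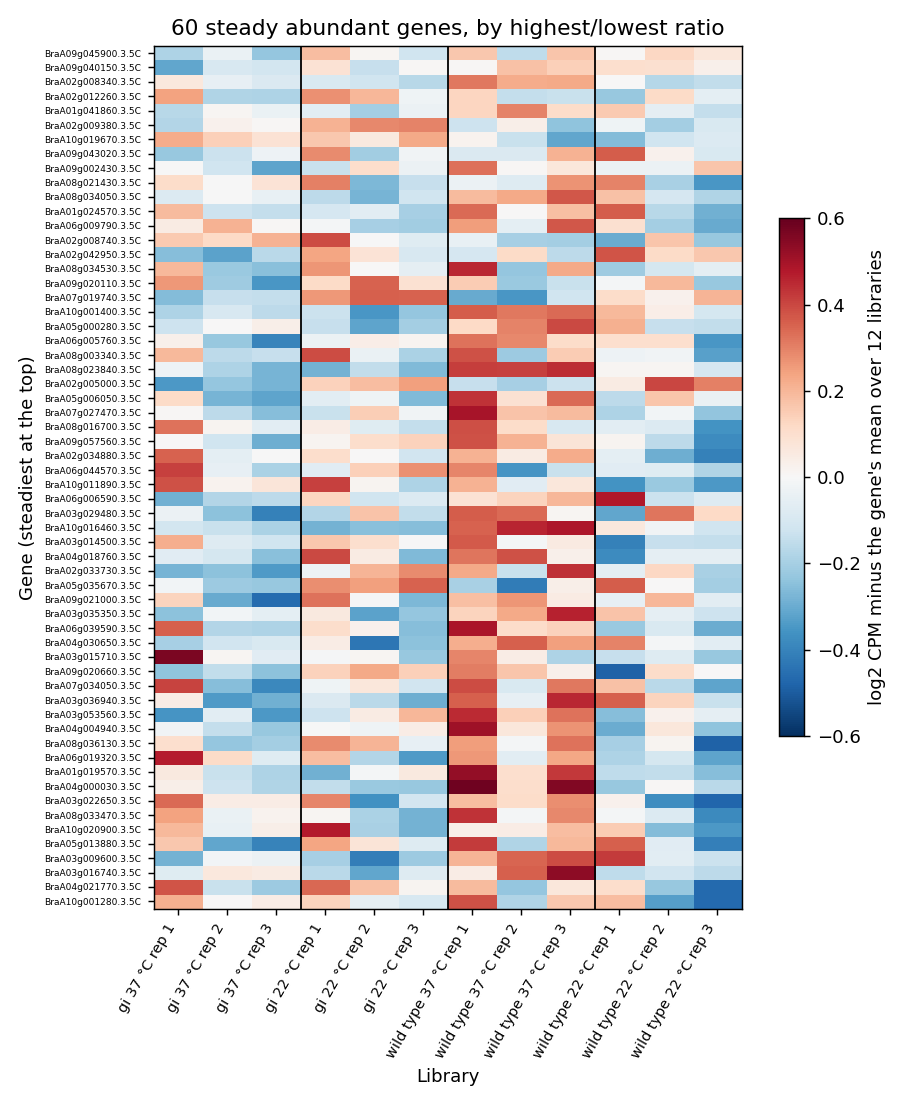
Each row is 1 of the 60 steady genes, from the lowest ratio at the top to the highest at the bottom, and each column a library. Colour gives log2 CPM minus the mean of that gene over the 12 libraries, from blue (lower) to red (higher). Wild type at 37 °C replicates 1 and 3 are mostly red, and wild type at 22 °C replicate 3 mostly blue.

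Taken as 1 quantity, the geometric mean of the 60 genes was 204, 184 and 178 CPM in gi at 37 °C, 209, 193 and 188 CPM in gi at 22 °C, 233, 205 and 222 CPM in wild type at 37 °C, and 199, 193 and 175 CPM in wild type at 22 °C. The highest library was 1.33 times the lowest. Wild type at 37 °C lay above wild type at 22 °C without overlap, while the gi groups overlapped. When each library was divided by its geometric mean of the 60 genes, which takes the scaling factor out, 56 of the 60 genes were under 1.8. The ratio of highest to lowest then had a median of 1.52 and a range of 1.27 to 1.95. The divisor comes from the same genes, chosen for low spread, so a narrow range here follows from the choice. Divided by the geometric mean of the 470 abundant genes, the 60 genes had a median ratio of 1.63 and a range of 1.24 to 2.30.

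The steadiness is that of TMM-scaled values and not of shares of the sum of counts. Relative to the median of all genes, the median log2 heat change of the 60 genes was 0.05 in gi and 0.38 in wild type. Together, the 60 genes took 1.00%, 1.10% and 1.11% of the counts in gi at 37 °C, against 1.72%, 1.66% and 1.70% in gi at 22 °C. In wild type they took 1.09%, 1.06% and 1.11% at 37 °C, against 1.71%, 1.82% and 1.81% at 22 °C. All 6 libraries at 37 °C lay below all 6 at 22 °C. The mean share at 37 °C was 0.632 times that at 22 °C in gi and 0.610 times in wild type. The other 410 abundant genes also took less of the counts at 37 °C, 20.9% ± 0.425 in gi at 37 °C against 31.8% ± 1.71 in gi at 22 °C, and 21.4% ± 1.65 in wild type at 37 °C against 28.4% ± 5.83 in wild type at 22 °C (SD, n = 3 each). TMM factors were 0.816 ± 0.126 in gi at 37 °C, 1.25 ± 0.0598 in gi at 22 °C, 0.719 ± 0.0489 in wild type at 37 °C and 1.39 ± 0.134 in wild type at 22 °C, so the scaling lifts the values at 37 °C relative to those at 22 °C.

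**Figure D4:**
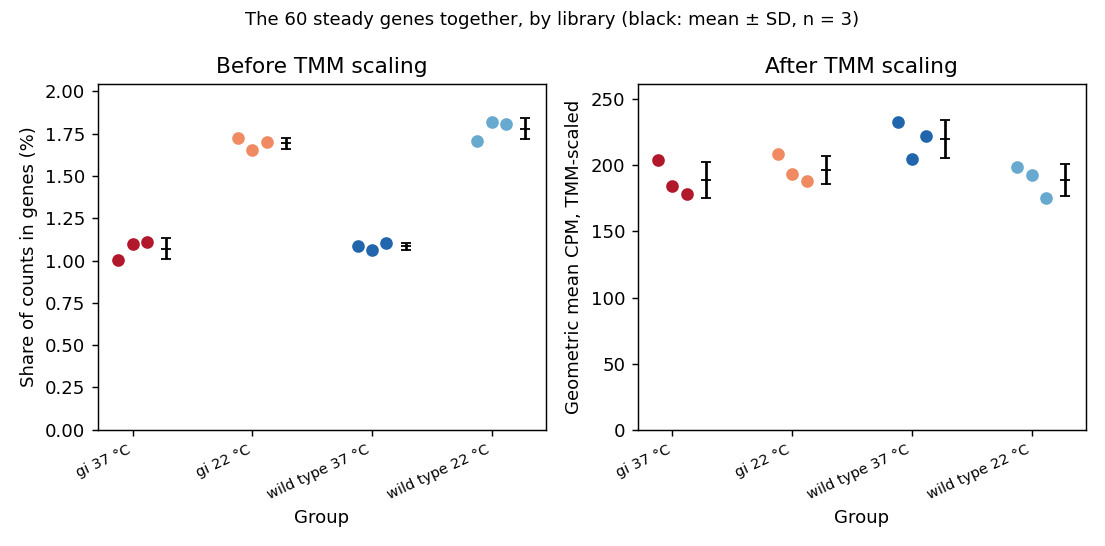
Points are libraries, grouped on the x axis, with the mean and SD of each group (n = 3) in black. Left, the share of all counts in genes taken by the 60 genes, 1.00% to 1.11% at 37 °C and 1.66% to 1.82% at 22 °C. Right, their geometric mean in TMM-scaled CPM, 175 to 233 CPM.

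Scaled to total counts, 57 of the 60 genes no longer met the rule. Their ratios then ran from 1.69 to 3.54 with a median of 2.36. The rule with total counts picked 34 genes, of which 3 were members. These 3, named after their values were seen, are BraA02g034880.3.5C, BraA06g039590.3.5C and BraA08g033470.3.5C. On the TMM scale their fitted log2 heat changes were 0.11 (SE 0.17), 0.05 (SE 0.21) and 0.23 (SE 0.18) in gi and 0.41 (SE 0.17), 0.46 (SE 0.21) and 0.40 (SE 0.18) in wild type, in that order of genes. With total counts their ratios were 1.69, 1.70 and 1.73. The 31 other genes picked with total counts had a median log2 heat change, on the TMM scale, of 0.59 in gi and 0.88 in wild type. DESeq2's size factors, another scaling to the bulk of genes, picked 59 genes, of which 56 were members.

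Ratios between 2 genes of a library do not depend on any scaling. Over the 1770 pairs among the 60 genes, the highest such ratio over the 12 libraries was a median of 1.85 times the lowest, and 794 pairs (44.9%) stayed under 1.8. Over the 83845 pairs among the other abundant genes the median was 4.74, and 3.34% stayed under 1.8. The contrast follows from the choice of the genes and is given for scale. The pair that kept the most constant proportion was BraA05g000280.3.5C and BraA08g034050.3.5C. The count of BraA05g000280.3.5C divided by that of BraA08g034050.3.5C was 1.34, 1.38 and 1.46 for gi at 37 °C, 1.397, 1.339 and 1.2996 for gi at 22 °C, 1.32, 1.44 and 1.40 in wild type at 37 °C, and 1.42, 1.34 and 1.41 in wild type at 22 °C. All 4 groups overlapped, and the highest value was 1.1196 times the lowest.

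The next pair was BraA08g023840.3.5C and BraA10g016460.3.5C, for which the highest proportion was 1.14 times the lowest. The count of BraA08g023840.3.5C divided by that of BraA10g016460.3.5C was 1.57, 1.43 and 1.39 for gi at 37 °C, 1.48, 1.59 and 1.47 for gi at 22 °C, 1.54, 1.44 and 1.44 in wild type at 37 °C, and 1.427, 1.513 and 1.5001 in wild type at 22 °C. BraA10g016460.3.5C nonetheless rose with heat in wild type, by the value given below, so a constant proportion does not stand for a constant level. These pairs lie on different chromosomes by their IDs. They were picked for their values, and whether near-identical gene copies share reads was not tested.

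The fit of all 28846 genes (edgeR's quasi-likelihood test, called at a Benjamini-Hochberg adjusted p under 0.05) was read for the 60 genes in 5 contrasts. The rule used the same counts, so the counts of calls are descriptions, and nothing is read from their distance to the share of all genes. For heat in gi, 2 of the 60 genes were called, against 30.4% of all genes tested, and both were lower at 37 °C, as were 14.2% of all genes (16.2% were higher). For heat in wild type 5 were called, against 34.7% of all genes, and all 5 were higher, as were 18.2% of all genes (16.5% were lower). The fitted log2 heat change of the 60 genes ran from -0.50 to 0.28 in gi (median -0.02) and from -0.41 to 0.55 in wild type (median 0.27), where all genes had medians of -0.07 and -0.11. It was above 0 in 26 of the 60 genes in gi and in 52 in wild type. Of all 28846 genes it was above 0 in 13407 in gi and in 13210 in wild type. The other 410 abundant genes had medians of -0.27 in gi (136 above 0) and 0.11 in wild type (233 above 0). In libraries, 6 of the 60 genes were higher at 37 °C without overlap in gi (25.5% of all genes, 16.2% of all abundant genes). In gi 9 were lower (27.2% and 34.7%). In wild type 21 were higher (22.9% of all genes, 28.3% of all abundant genes) and 3 lower (23.9% and 9.57%). Scaled to total counts these numbers turned to 0 higher (12.3% of all genes) and 60 lower (51.7%) in gi. In wild type they turned to 0 higher (7.84% of all genes) and 58 lower (56.7%). The median heat change in wild type was 0.15 without wild type at 22 °C replicate 3, and was 0.22 to 0.31 without any other single library.

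The gene with the largest mean rise by heat over both genotypes was BraA04g000030.3.5C. BraA04g000030.3.5C had 296, 266 and 255 CPM in gi at 37 °C, 261, 248 and 247 CPM in gi at 22 °C, 433, 310.4 and 425 CPM in wild type at 37 °C, and 247, 290.5 and 258 CPM in wild type at 22 °C. The rise was called in wild type, with a log2 change of 0.55 (SE 0.18), and the change in gi was 0.11 (SE 0.18). The wild-type libraries at 37 °C lay above all 9 others, replicate 2 by the smallest margin. The largest mean fall was that of BraA02g005000.3.5C. BraA02g005000.3.5C had 119, 129 and 125 CPM in gi at 37 °C, 167, 172 and 179.6 CPM in gi at 22 °C, 138, 132 and 139 CPM in wild type at 37 °C, and 156, 199.995 and 186 CPM in wild type at 22 °C. The 37 °C libraries lay below the 22 °C libraries of the same genotype without overlap in gi and in wild type, and the log2 change was -0.48 (SE 0.15) in gi, where it was called, and -0.41 (SE 0.15) in wild type, where it was not.

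The other called fall in gi was in the steadiest gene of A07. BraA07g019740.3.5C had 219, 238 and 237 CPM in gi at 37 °C, 314, 336 and 335 CPM in gi at 22 °C, 213, 206 and 241 CPM in wild type at 37 °C, and 283, 267 and 302 CPM in wild type at 22 °C. Here too all 6 libraries at 37 °C were below all 6 at 22 °C, with log2 changes of -0.50 (SE 0.16) in gi and -0.37 (SE 0.16) in wild type. The calls among the 60 genes were all of changes under 1.5-fold, and they rest on few libraries. DESeq2 called 4 genes for heat in gi, against 37.2% of all genes, and 14 in wild type, against 40.9%. Without the filter on low counts edgeR called 0 in gi, against 21% of all genes, and 0 in wild type, against 24.3%. An unadjusted p under 0.05 was found for 4 of the 60 genes in gi, against 41.5% of all genes, and for 14 in wild type, against 45.0%. Without any single gi library, 0 of the 60 genes were called for heat in gi, against 21% to 25.6% of all genes. Without wild type at 37 °C replicate 1 it was also 0, against 28.6% of all genes. Without wild type at 37 °C replicate 3 it was 1 (29.1% of all genes), and without wild type at 22 °C replicate 1 it was 4 (36.1%). For heat in wild type the number was 0 without wild type at 22 °C replicate 2 (30.8% of all genes) or replicate 3 (31.3%). It was also 0 without wild type at 37 °C replicate 3 (28.9%). The highest number was 7, without wild type at 22 °C replicate 1 (31.6%).

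For gi against wild type, edgeR called 0 of the 60 genes at 22 °C, against 1.01% of all genes (0.451% higher and 0.562% lower), and 0 at 37 °C, against 2.7% (1.29% higher and 1.4% lower). This fit did not pair libraries by their replicate number. At 22 °C an unadjusted p under 0.05 was found for 1 of the 60 genes, against 15.1% of all genes, and DESeq2 called 2, against 5.46%. At 37 °C it was found for 15, against 20.4% of all genes, and DESeq2 called 8, against 10.5%. The fitted log2 differences of the 60 genes ran from -0.37 to 0.41 at 22 °C (median 0.08, above 0 in 36 genes) and from -0.58 to 0.31 at 37 °C (median -0.26, below 0 in 48 genes). The other 410 abundant genes leaned the same way, with medians of 0.22 at 22 °C (316 above 0) and -0.16 at 37 °C (275 below 0). Of all 28846 genes, 13838 were above 0 at 22 °C and 14918 below 0 at 37 °C. In libraries at 22 °C, gi was higher without overlap in 9 of the 60 genes (9.78% of all genes, 10.9% of all abundant genes). It was lower in 4 of the 60 (10.7% of all genes, 4.47% of all abundant genes). At 37 °C gi was higher in 2 (15.3% and 6.38%) and lower in 26 (15.3% and 22.8%). Scaled to total counts, the numbers at 22 °C turned to 1 higher (6.01% of all genes) and 15 lower (15.5%). The median log2 difference of the 60 genes at 22 °C turned to -0.06, where that of all genes was -0.17. Relative to the median of all genes it was 0.10 with TMM and 0.11 with total counts, and with TMM it was 0.03 once wild type at 22 °C replicate 3 was left out. At 37 °C total counts gave 7 higher (21.2% of all genes) and 12 lower (9.24%). The median log2 difference at 37 °C was then -0.09 for the 60 genes and 0.16 for all genes. Relative to the median of all genes, the 60 genes stood at -0.23 with TMM and at -0.24 with total counts.

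The gene with the highest mean log2 difference between gi and wild type was BraA10g019670.3.5C, also the steadiest of A10. BraA10g019670.3.5C had 178, 169 and 162 CPM in gi at 37 °C, 171, 159 and 179 CPM in gi at 22 °C, 155, 139 and 123 CPM in wild type at 37 °C, and 127, 141 and 144 CPM in wild type at 22 °C. Each gi library was above each wild-type library, with log2 differences of 0.30 (SE 0.15) at 22 °C and 0.29 (SE 0.15) at 37 °C and heat changes near 0 in both genotypes. The lowest mean difference was that of BraA10g016460.3.5C. BraA10g016460.3.5C had 185, 182 and 175 CPM in gi at 37 °C, 164, 168 and 167 CPM in gi at 22 °C, 255, 273 and 279 CPM in wild type at 37 °C, and 208, 196 and 184 CPM in wild type at 22 °C. The gi libraries lay below the wild-type libraries of the same temperature without overlap, with log2 differences of -0.24 (SE 0.15) at 22 °C and -0.58 (SE 0.15) at 37 °C. It rose with heat in wild type, by 0.46 (SE 0.15) on the log2 scale, where it was called, and the value in gi was 0.12 (SE 0.15).

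The interaction is the heat change in gi minus that in wild type. Of the 60 genes, edgeR called 0, against 0.118% of all genes (0.0693% higher and 0.0485% lower), DESeq2 called 0, against 1.96%, and 8 had an unadjusted p under 0.05, against 10.2%. The fitted interaction log2 was below 0 in 58 of the 60 genes, with a median of -0.23 and a range of -0.70 to 0.08. It was also below 0 in 354 of the other 410 abundant genes (median -0.32). All 28846 genes had a median of 0.01, with 14238 below 0. Scaled to total counts, the median was 0.09 for the 60 genes and 0.34 for all genes, so its sign for the 60 genes turns with the scaling. Relative to the median of all genes it was -0.24 with TMM and -0.25 with total counts.

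The lowest interaction value among the 60 genes was that of BraA03g053560.3.5C, a gene named after its values were seen. BraA03g053560.3.5C had 102, 125 and 103 CPM in gi at 37 °C, 119.7, 135 and 149.6 CPM in gi at 22 °C, 178, 144 and 163 CPM in wild type at 37 °C, and 109, 132 and 126 CPM in wild type at 22 °C. Its interaction log2 was -0.70 (SE 0.24), not called, and at 37 °C the gi libraries lay below the wild-type libraries without overlap.

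**Figure D5:**
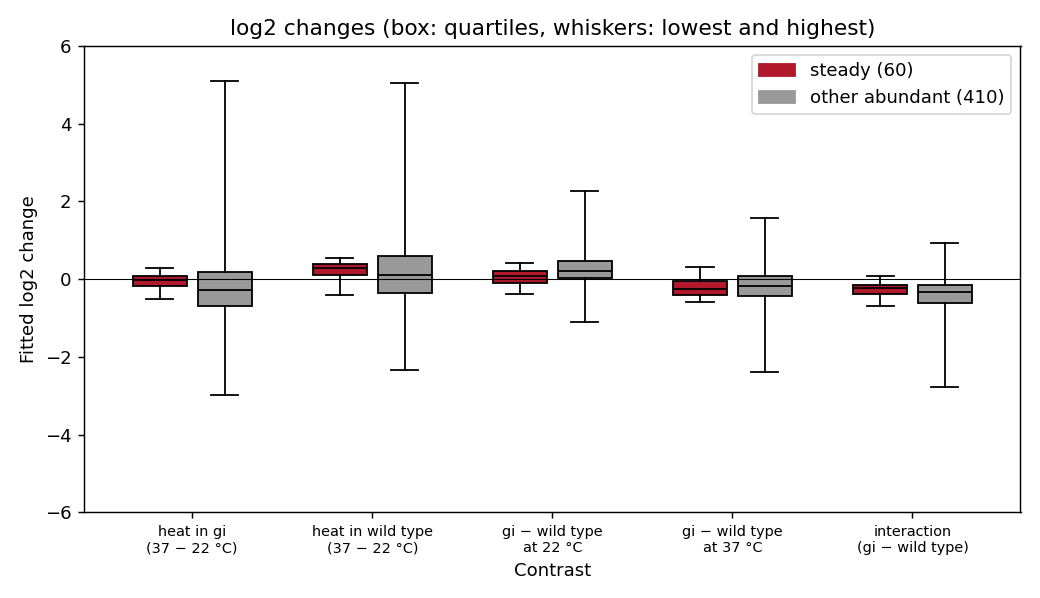
Boxes give the quartiles, the line the median and the whiskers the lowest and highest fitted log2 change of the 60 steady genes (red) and the other 410 abundant genes (grey) in each of the 5 contrasts on the x axis. The steady genes stay between -0.70 and 0.55, and the others reach 5.09. The choice of the genes fixes the narrow red boxes.

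Single libraries decided membership to different degrees, a description chosen after the data were seen. The rule was applied to each set of 11 libraries with the scaling of all 12 kept, which picks the 60 genes every time and adds those that only the missing library had kept out. Wild type at 22 °C replicate 1 alone kept 38 genes out of the group, and wild type at 22 °C replicate 3 kept out 24, while each of the other libraries kept out 1 to 7.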

How the data were processed

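Messenger RNA of 12 whole-plant samples was sequenced from stranded libraries, per the labels. Raw counts were deposited by the authors in a table for each library, as whole reads per gene and not normalized. The submitters' processing notes name the tools FastQC, TopHat2, HTSeq and edgeR without versions. Of the genome build, annotation release and strand setting, the sources used here say nothing. The 5 last rows, which name no gene, were left out. The row for unaligned reads was 1.02 to 1.04 times the sum of all other rows, and 89.9% to 91.6% of the reads in those other rows were in genes.

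The software was edgeR 4.0.16 and DESeq2 1.42.0 under R 4.3.3. CPM is the count over the sum of gene rows times the TMM factor. Genes were kept by filterByExpr (minimum count 10, total 15). The 12 libraries entered 1 quasi-likelihood model with a mean per group (robust glmQLFit), and p-values of glmQLFTest were adjusted by Benjamini-Hochberg over 28846 genes. Standard errors are the log2 change over the square root of F. The code was checked on simulated counts with an even spread between replicates. That check does not cover replicates as uneven as those of this study. A DESeq2 fit, other scalings, filters, limits and left-out libraries were the alternatives.

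The 60 genes, the comparisons and the rule for named genes were chosen with earlier results of these data known. The rule took the 4 lowest ratios, the 4 highest means, the lowest ratio of each chromosome, the 2 genes on each side of both limits, and the largest mean rise and fall by heat and by genotype. The labels number the replicates without saying what a number stands for. For libraries of equal number, deviations from the group mean had correlations of 0.272, 0.209 and 0.145 across genotypes at 22 °C, over 28846 genes. At 37 °C they were 0.347, 0.102 and 0.169. The highest correlation across genotypes for libraries of different number was 0.131 at 22 °C and 0.205 at 37 °C. Numbers were thus taken to pair the genotypes at 22 °C, by a narrow margin for replicate 3. The main fit, with a mean per group alone, does not use this pairing. At 37 °C the pairing is unsure, since 0.102 and 0.169 lay below 0.205. Between temperatures the correlations for equal numbers reached -0.272 in gi and -0.0420 in wild type at the lowest, so the numbers pair nothing there.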

Additional observations from a re-analysis of the deposited data

How the results depend on the processing

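The group depends most on the scaling and the limits. With total counts in place of TMM, 34 genes met the rule, the number of the 60 genes called for heat was 52 in gi and 57 in wild type, all lower at 37 °C, against 47.1% and 62.1% of all genes called in either direction, and their median log2 heat change was -0.67 in gi and -0.68 in wild type. The last value reverses that of 0.27 with TMM. Relative to the median of all genes it did not reverse, at 0.38 with TMM and 0.37 with total counts. For heat in gi the values relative to all genes were 0.05 and 0.01. Of all genes called with total counts, 18.5% in gi and 11.6% in wild type were higher. Total counts shifted the median of all genes to -0.68 in gi and -1.05 in wild type. A change of scaling moves all genes of a library together, and what lies behind the difference between the scalings was not tested. A limit of 1.5 left 7 genes and one of 2 gave 96; a floor of 50 CPM gave 238 and one of 200 CPM 13. Scaling by the geometric mean of the abundant genes, chosen after seeing the data, gave 91 genes, 42 of them members, and leaving out replicate 1 of both groups at 37 °C, also chosen after seeing the data, gave 86. Leaving out wild type at 22 °C replicate 1 gave 98 genes (55 members), and over all single libraries the number ranged from 58 to 98. Without any filter on low counts, 0 of the 60 genes were called for heat in gi and 0 in wild type, against 21% and 24.3% of all genes (the cause was not tested). DESeq2 called 4 and 14, against 37.2% and 40.9% of all genes, and for gi against wild type 2 at 22 °C and 8 at 37 °C, against 5.46% and 10.5%. Leaving out single libraries gave medians of -0.14 to 0.03 for heat in gi and 0.15 to 0.31 for heat in wild type. It gave 0 to 4 calls for heat in gi, against 21% to 36.1% of all genes. For heat in wild type it gave 0 to 7, against 24.8% to 34.2%, and for genotype at 37 °C 0 to 2, against 0.715% to 6.78%. The 2 calls at 37 °C came without wild type at 22 °C replicate 1, where 6.78% of all genes were called. With the replicate number as a block, 2 genes were called for heat in gi and 1 for heat in wild type, where the numbers pair nothing. For genotype at either temperature and for the interaction 0 were called, as without the block. This block gives a number the same effect at both temperatures, so a pairing of the genotypes within each temperature was not tested. With DESeq2 size factors, 25 of 25 ratios of named genes stayed within 1.5 times the TMM value, and with total counts 13 of 25. The effect of depth was not tested.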
